A study of Mus musculus with 6 samples.

Results

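The miRNAs miR-322, miR-503, miR-351, miR-542 and miR-450 come from 7 hairpins that lie side by side on the mouse X chromosome. Their Ago-bound reads were followed here in the brains of young and old mice. The members were 8 mature strands: mmu-miR-322-5p, mmu-miR-322-3p, mmu-miR-503-5p, mmu-miR-351-5p, mmu-miR-542-5p, mmu-miR-542-3p, mmu-miR-450a-5p and mmu-miR-450b-5p. A read sequence was counted for a member when the deposited annotation gave it that label, and this took 164 read sequences of 143934, and 8 miRNA labels of 1091. No read sequence of a member carried a further miRNA label. The set was selected on measured values of the comparison between ages, so the age differences in the members' totals are given as a description, with no p-value for a member, and the counts of members called in a fit over all miRNAs are no independent evidence.

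The study pulled down Ago1-4 with a peptide of GW182, the partner protein that Argonaute binds in the RNA-induced silencing complex (RISC), and sequenced the small RNAs that came with it (R-sRNAs). The tissue was cortex and hippocampus combined. The groups were 3 mice at the age of 2 months (2M) and 3 mice at the age of 18 months (18M). All were BL6 animals, for which the labels name no treatment or transgene, and the study's methods describe the mice of both ages as purchased C57BL/6J males, so each carries a single X chromosome. Values are in RPM, a read number scaled to the same library total, so each is a share of a library and not an amount per cell. In such bulk tissue, fewer cells of a type and less RNA per cell cannot be told apart.

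An miRNA is cut from a hairpin as a duplex of a 5p and a 3p strand, and Argonaute keeps mostly 1 of them. The kept strand recognises messenger RNAs by its seed, the bases that start at its second position, and miRNAs with the same seed have largely the same targets. miR-322-5p and miR-503-5p carry the seed of the miR-15/16 family, whose known targets include cell cycle genes such as cyclin D1. Both are known for lowering Cdc25a, a phosphatase that starts cell division, when muscle precursors stop dividing. miR-351-5p carries the seed of miR-125, which is abundant in brain.

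The seeds sort the members into groups. The mature sequences below are those of RefSeq (GRCm38.p6), which held all 13 strands of the 7 hairpins, with bases 2 to 8 in capitals. The first lines set miR-322-5p and miR-503-5p beside the family members that make up most brain reads with their seed. miR-322-5p matched them from base 2 to base 8, and miR-503-5p from base 2 to base 7 only.
mmu-miR-322-5p: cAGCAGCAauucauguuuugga
mmu-miR-503-5p: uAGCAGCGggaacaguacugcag
mmu-miR-16-5p: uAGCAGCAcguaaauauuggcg
mmu-miR-15a-5p: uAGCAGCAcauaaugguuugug

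miR-351-5p matched both miR-125 family members from base 2 to base 8. Past base 8 its sequence differed from both, though miR-351-5p and miR-125a-5p each hold cccuuu there.
mmu-miR-351-5p: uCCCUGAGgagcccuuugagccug
mmu-miR-125b-5p: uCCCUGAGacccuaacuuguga
mmu-miR-125a-5p: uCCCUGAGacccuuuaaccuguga

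The other 5 members each had a seed that no other member shared. They are shown because the study rates RNAs by their seed, and these seeds differ in that rating.
mmu-miR-322-3p: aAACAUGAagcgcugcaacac
mmu-miR-542-5p: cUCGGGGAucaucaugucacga
mmu-miR-542-3p: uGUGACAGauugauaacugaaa
mmu-miR-450a-5p: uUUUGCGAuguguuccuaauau
mmu-miR-450b-5p: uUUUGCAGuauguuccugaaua

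All 7 hairpins lie on the minus strand of chromosome X within 6.35 kb, and none overlaps an annotated gene other than the miRNA itself (GENCODE M21, GRCm38). In the order of transcription these are Mir322 at chrX:53054255-53054349, Mir503 at chrX:53053984-53054054, Mir351 at chrX:53053255-53053353, Mir542 at chrX:53049403-53049487, Mir450-2 at chrX:53048299-53048367, Mir450-1 at chrX:53048154-53048244 and Mir450b at chrX:53047997-53048078. A gap of 3767 bp separates the first 3 hairpins from the rest, and the lincRNA gene Gm28730 lies in it. The nearest annotated gene upstream of Mir322 is the noncoding C430049B03Rik, 696 bp away on the same strand. miR-450a-5p can come from Mir450-1 and Mir450-2, and its reads cannot be split between them. The hairpin of miR-322, from which most reads of the cluster came, is shown with its 5p and 3p strands in capitals.
Mir322: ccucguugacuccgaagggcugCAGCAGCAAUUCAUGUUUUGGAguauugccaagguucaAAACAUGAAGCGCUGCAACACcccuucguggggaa

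The libraries held 19272046 to 25080484 reads each. A count of 3 reads, taken as the detection floor, corresponds to 0.120 to 0.156 RPM, and such floors cover the counting error alone because PCR copies of a molecule could not be told apart. Neuronal miRNAs (miR-124-3p, miR-128-3p and miR-9-5p) summed to between 177854 and 235808 RPM, so the defining miRNAs of neurons were present. The summed levels of all 9 marker lists for cell types of brain and of neighbouring tissues overlapped between the ages. Within the vessel list, 2 of 4 miRNAs were lower at 18M without overlap, and the summed level was 11390 to 17001 RPM at 2M and 10104 to 13607 RPM at 18M. In the choroid plexus list, 1 of the 4 miRNAs with a mean of at least 10 RPM was higher without overlap. The other lists held no such miRNA in either direction. Among all 466 miRNAs at that level, 86 (18.5%) were lower and 26 were higher without overlap. In 18M replicate 2, 5 of the 9 lists had their lowest level of all 6 libraries: erythrocyte, vessel, microglia and immune cell, muscle, and choroid plexus. The neuron list and the miR-200 family list (olfactory epithelium type) had their highest level there. No library was a duplicate of another.

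The cluster was a minor part of the RISC, at 0.0154% to 0.0412% of a library. Added up, the 8 members had 393, 412 and 398 RPM in 2M replicates 1, 2 and 3, and 218, 154 and 200 RPM in 18M replicates 1, 2 and 3. Each old library was below each young library. The mean at 2M was 401 ± 10.04 RPM (SD, n = 3) and that at 18M was 191 ± 32.8 RPM (SD, n = 3), which is 47.6% of the young level. On the log2(RPM + 1) scale the difference was -1.08. Most of this sum was miR-322-5p, with 70.0% of the cluster's reads over the 6 libraries, and both strands of miR-322 together made up 79.9%.

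miR-322-5p, the leading strand, ranked 224 among the 1091 miRNA labels by mean level. Its level was 265, 306 and 279 RPM in the 3 libraries of 2M and 156, 96.1 and 141 RPM in those of 18M. Young and old libraries were well apart, and 18M replicate 2 was the lowest. The mean went from 284 ± 21.0 to 131 ± 31.1 RPM (SD, n = 3 each), or 46.1% of the young level, and the log2 fold change was -1.14 ± 0.19 (SE). Its partner strand, miR-322-3p, had 43.1, 33.6 and 39.8 RPM at 2M and 20.2, 17.3 and 21.5 RPM at 18M. The difference was of like size, with a log2 fold change of -0.94 ± 0.15 (SE) and no overlap between ages.

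miR-503-5p, the other member with the miR-15/16 seed, was much scarcer than miR-322-5p and varied more among the old mice. It had 19.6, 16.3 and 14.9 RPM at 2M and 12.4, 3.50 and 9.46 RPM at 18M. The old libraries were again all below the young ones, but 18M replicate 1 was close to the lowest young library. The log2 fold change was -1.06 ± 0.40 (SE), and it was -0.59 without 18M replicate 2. That library, which had the lowest miR-322-5p and miR-503-5p, was also the lowest for the 5 marker lists named above. It had 10104 RPM for the vessel list, 766 RPM for microglia and immune cells, 195.4 RPM for muscle and 2913 RPM for choroid plexus. For the neuron list and the miR-200 family list it was the highest library, at 235808 and 41710 RPM. The erythrocyte list had 1120 RPM there, 2746 and 2322 RPM in the other old libraries and 2366 to 3509 RPM in the young ones. Of the erythrocyte list 3 of 4 miRNAs were found among the labels, 2 of them had a mean of at least 10 RPM, and none of these was lower at 18M without overlap. The part of these cell types in the miR-322 and miR-503 levels was not tested.

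miR-351-5p differed most between the ages. Its level was 34.9, 35.8 and 41.0 RPM at 2M and 14.7, 15.9 and 6.44 RPM at 18M. Here 18M replicate 3, not replicate 2, was the lowest. The mean at 18M was 33.1% of that at 2M, and the log2 fold change was -1.60 ± 0.32 (SE). Without 18M replicate 3 it was -1.23. miR-125a-5p and miR-125b-5p, which carry the same seed, had their lowest levels in that library too, at 6848 and 23714 RPM, but their ranges overlapped between the ages. The pituitary list and the miR-200 family list were also lowest in 18M replicate 3, at 5277 and 23968 RPM, and no marker list was highest there. The part of these cell types in the miR-351-5p level was not tested.

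The members of the downstream hairpins were scarce and did not all go the same way. miR-542-3p, known as a regulator of the apoptosis inhibitor survivin, had 9.67, 8.33 and 7.29 RPM at 2M and 4.46, 4.39 and 4.202 RPM at 18M. Its old libraries were close together and below every young one, with a log2 fold change of -0.81 ± 0.13 (SE) in the fit of miRNAs with a mean of at least 1 RPM. miR-542-5p had 1.48, 3.95 and 3.62 RPM at 2M and 0.986, 1.96 and 1.51 RPM at 18M. These ranges overlapped, since 2M replicate 1 was as low as the old libraries.

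miR-450a-5p was the abundant exception. It had 19.2, 7.69 and 11.3 RPM at 2M and 9.18, 14.8 and 15.8 RPM at 18M, so the highest and the lowest library were both young. The log2 fold change was 0.11 ± 0.35 (SE), and with a library left out it ranged from -0.18 (2M replicate 2) and -0.03 (18M replicate 3) to 0.43 (2M replicate 1). It held 3.20% ± 1.54 of the cluster's reads at 2M and 7.22% ± 2.74 at 18M (SD, n = 3 each), with overlap between 4.88% in 2M replicate 1 and 4.21% in 18M replicate 1. miR-450b-5p was at the limit of detection, with 15 reads in the 3 young libraries together and 21 reads in the old ones. No difference of miR-450b-5p was detectable at this depth.

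**Figure D1:**
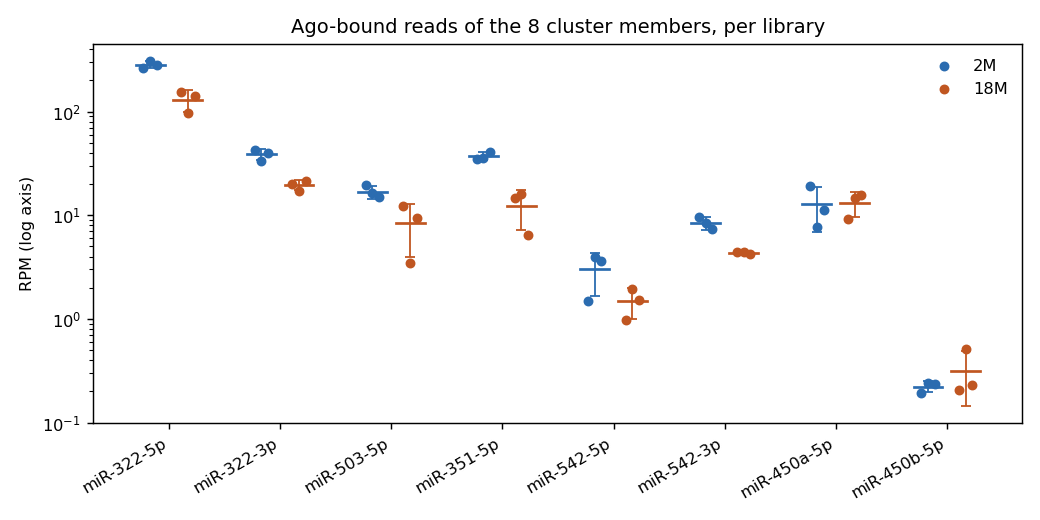
Level of each member in each library, in RPM on a log axis, with 2M in blue and 18M in orange. Points are libraries, horizontal lines are means of 3 libraries and error bars are SD. The points of the ages separate for miR-322-5p, miR-322-3p, miR-503-5p, miR-351-5p and miR-542-3p, and mix for miR-542-5p, miR-450a-5p and miR-450b-5p.

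Set out by level at 2M, miR-322-5p stood above all other members without overlap. miR-322-3p and miR-351-5p came next, and their ranges overlapped. They were followed by miR-503-5p and miR-450a-5p, which overlapped, and by miR-542-3p, which overlapped with miR-450a-5p but not with miR-503-5p. miR-542-5p and miR-450b-5p were last, each apart from the one before. At 18M the order began with miR-322-5p and miR-322-3p, which did not overlap with each other or with the rest. The ranges of miR-450a-5p, miR-351-5p and miR-503-5p overlapped at 18M, as did those of miR-503-5p and miR-542-3p, so miR-351-5p no longer stood above miR-450a-5p. Each molecule gives a single read whatever its length, but ligation preferences that differ between sequences were not corrected.

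In total, 5 of the 8 members were lower in all 3 old libraries than in all 3 young ones. At a mean of at least 10 RPM this was 4 of 5 members, beside 18.5% of the 466 miRNAs at that level, and at a mean of at least 1 RPM it was 5 of 7 members, beside 18.3% of 698 miRNAs. In the limma fit over the 466 miRNAs, 2 of the 5 members tested, miR-322-5p and miR-322-3p, had an adjusted p under 0.05, beside 3.22% of all miRNAs tested, and in the fit over 698 miRNAs it was 4 of 7 members, beside 3.15%. The members were chosen on this contrast, so these counts describe them and support nothing further. The 15 miRNAs called in all were 14 lower and 1 higher at 18M, and with DESeq2 on the recovered reads the 43 called were 29 lower and 14 higher. The member count depended on single libraries. Leaving out any library of 2M, or replicate 1 or 3 of 18M, brought it to 0, and leaving out 18M replicate 2 brought it to 3. Over these 6 fits the log2 fold change ran from -1.28 to -0.93 for miR-322-5p and from -1.04 to -0.86 for miR-322-3p. The median log2 fold change of the 466 miRNAs was -0.07, and that of the 5 members was -1.06.

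**Figure D2:**
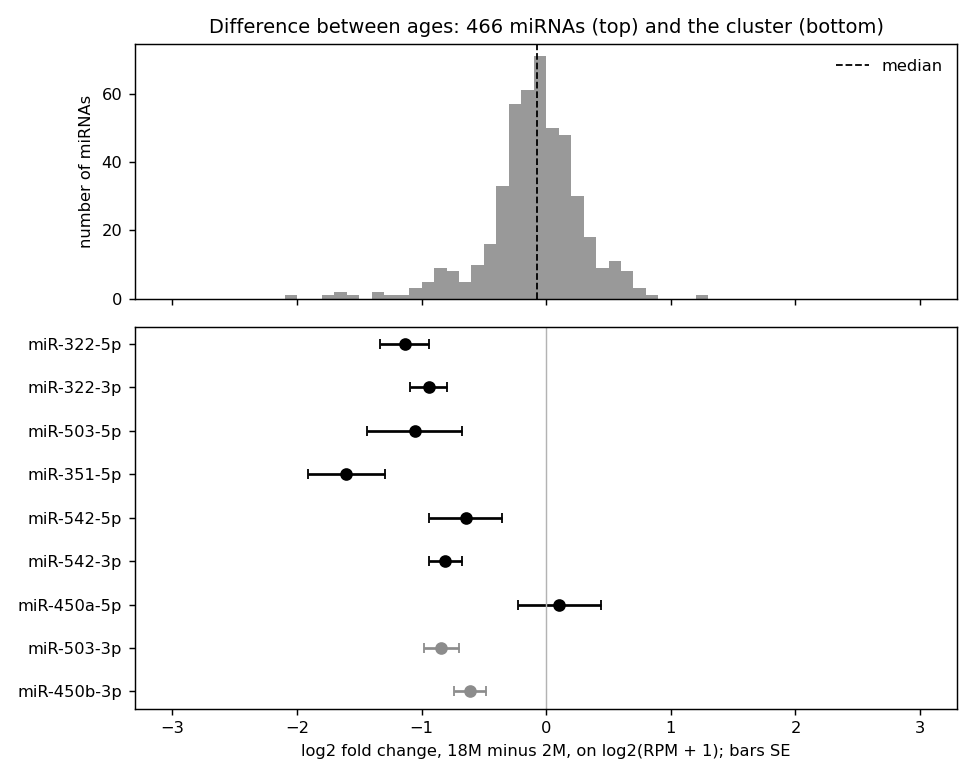
Log2 fold change between ages, 18M minus 2M, on the log2(RPM + 1) scale, as a histogram of 466 miRNAs (upper panel, dashed line at their median of -0.07) and for the strands of the cluster with a mean of at least 1 RPM (lower panel, members in black, other strands in grey, bars SE from the limma fit). Every strand drawn except miR-450a-5p lies below 0, and miR-351-5p lies farthest to the left at -1.60.

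The 5 strands of the same hairpins that are not members all had a mean below 5 RPM. miR-503-3p, the partner of miR-503-5p, had 5.72, 6.18 and 7.53 RPM at 2M and 3.27, 3.37 and 2.83 RPM at 18M, without overlap and at 48.8% of the young level. miR-450b-3p had 2.24, 2.23 and 2.19 RPM at 2M and 0.881, 1.24 and 1.23 RPM at 18M. Its young libraries were nearly identical, and its old ones lay at 50.3% of their mean. miR-351-3p was lower without overlap as well, at 91 reads in the young libraries together and 36 in the old ones. miR-450a-2-3p overlapped between the ages, and miR-450a-1-3p had 13 reads at 2M and 2 at 18M. miR-450a-1-3p and miR-450b-3p share their seed and most of their sequence. Their leading reads, both 22 nt long, differed near the 3′ end, where the mature sequences differ.

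Whether both strands of a hairpin moved together was read from the share of the main strand, a ratio within each library. For Mir322 and Mir542 both strands are members, so their shares follow from totals that the set was selected on. The shares of Mir503, Mir351 and Mir450b each contain the total of a member too. The shares are given as a description. miR-322-5p made up 87.9% ± 2.08 of the reads of its hairpin at 2M and 86.7% ± 1.89 at 18M (SD, n = 3 each), a difference within the spread of the libraries. For Mir351 the 5p strand held 96.5% ± 0.0827 at 2M and 95.0% ± 2.31 at 18M. For Mir503 it held 72.1% ± 5.50 and 69.0% ± 15.7. For Mir542 the 3p strand was the main one, with 73.8% ± 11.2 at 2M and 74.9% ± 6.47 at 18M. In these 4 hairpins the ranges of the strand share overlapped between the ages, though for Mir351 and Mir503 the old libraries were spread more widely. Mir450b was different: miR-450b-3p held 90.2% to 92.1% of the reads of its hairpin in the young libraries and 70.7% to 84.4% in the old ones, on 15 and 21 reads of the other strand.

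**Figure D3:**
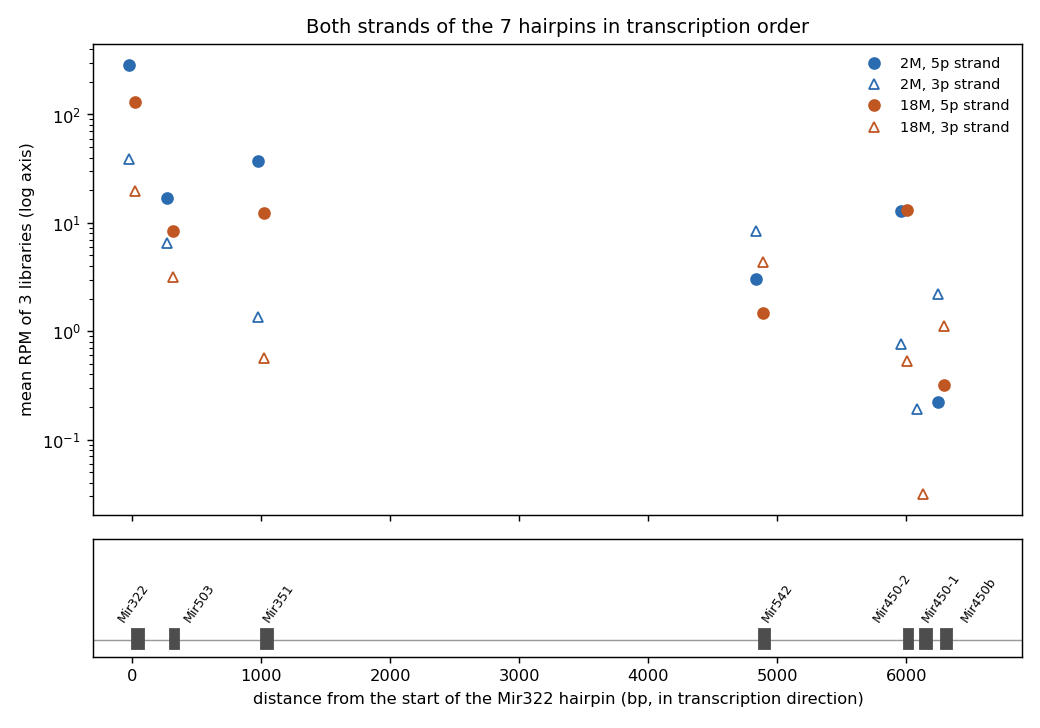
Mean level of each strand in RPM on a log axis (3 libraries per point, 2M in blue, 18M in orange, filled circles 5p, open triangles 3p) against the distance of its hairpin from the start of Mir322 in bp, with the hairpins drawn to scale in the lower panel and miR-450a-5p placed at Mir450-2. The orange point lies below the blue one for every strand except miR-450a-5p and miR-450b-5p at the far end of the cluster, and levels fall from 284 RPM for miR-322-5p at 2M to under 20 RPM for every strand downstream of Mir351.

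The reads of each member were then taken apart by their ends. This composition does not depend on a member's total, so it was tested between ages. The 5′ end matters because it sets the seed. The 3 most abundant reads of miR-322-5p all began at the annotated base and differed at the 3′ end, and they are given with bases 2 to 7 in capitals and T for U as in the reads.
miR-322-5p read of 22 nt: cAGCAGCaattcatgttttgga
miR-322-5p read of 20 nt: cAGCAGCaattcatgttttg
miR-322-5p read of 21 nt: cAGCAGCaattcatgttttgg

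They made up 30.7%, 20.4% and 19.9% of the strand's reads. All 3 were lower at 18M without overlap, at 48.8%, 40.6% and 40.9% of their young levels. A second group of reads began 1 base further upstream and so carried another seed. Its most abundant read has the shifted seed in capitals.
miR-322-5p read shifted by 1 base: gCAGCAGcaattcatgttttg

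Reads with this shifted start were 11.9%, 14.5% and 13.0% of miR-322-5p reads in the 2M libraries and 16.2%, 16.6% and 15.5% in the 18M libraries. The share was a little higher in each old library. Accordingly, the share that began at the annotated base was 85.4% ± 1.36 at 2M and 82.8% ± 0.537 at 18M (SD, n = 3 each), without overlap (exact two-sided permutation test, p = 0.1, the smallest that 3 against 3 allows). Adjusted over the 10 composition measures with the Benjamini-Hochberg method the p was 0.333, so the difference did not pass. The shifted read itself was lower at 18M, with 12.5 ± 2.54 RPM against 23.6 ± 4.54 RPM (SD, n = 3 each).

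miR-322-3p also began at several bases. At 2M 80.7% ± 2.29 of its reads had the annotated start, compared with 76.9% ± 6.23 at 18M (SD, n = 3 each), and the ranges overlapped (exact permutation test, p = 0.4, adjusted 0.571). Of that difference of -3.84 percentage points, -0.24 remained without 18M replicate 2. miR-503-5p, miR-351-5p and miR-450a-5p began at the annotated base in 98.6% to 100% of their reads in every library. Outside the members, miR-503-3p was split between a start 1 base upstream, with 53.4% ± 3.78 of its reads at 2M, and the annotated start with 46.6% ± 3.78.

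Read length varied at the 3′ end. The reads of miR-351-5p were spread most widely, from 19 to 26 nt, and its 2 leading forms are shown, with bases 2 to 7 in capitals.
miR-351-5p read of 23 nt: tCCCTGAggagccctttgagcct
miR-351-5p read of 20 nt: tCCCTGAggagccctttgag

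The mean read length of miR-351-5p was 21.5, 21.7 and 21.8 nt at 2M and 21.8, 21.8 and 22.1 nt at 18M. The old libraries were longer without overlap, by 0.246 nt on average (exact permutation test, p = 0.1, adjusted 0.333). Reads of 23 nt, singled out after their values were seen, were 16.6% ± 3.06 of miR-351-5p at 2M and 28.5% ± 6.89 at 18M (SD, n = 3 each). The 23 nt read above fell less between the ages than the 20 nt read, with 53.6% against 30.9% of the young level left at 18M. Reads that departed from the hairpin sequence towards their 3′ end made up 36.6% ± 4.18 of miR-351-5p at 2M and 28.5% ± 4.99 at 18M. These shares were above the 14.1% ± 1.26 and 14.5% ± 2.11 of miR-322-5p.

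miR-450a-5p was longer at 18M as well, at 21.6 ± 0.0175 nt against 21.4 ± 0.125 nt (SD, n = 3 each, exact permutation test, p = 0.1, adjusted 0.333). The mean lengths of miR-322-5p, miR-322-3p and miR-503-5p overlapped between the ages. None of the 10 measures passed the adjusted threshold, which a design of 3 against 3 could not have reached. Over all members, 36 read sequences reached a mean of 1 RPM, and 22 of these were lower at 18M without overlap, beside 8.86% of the 10438 miRNA read sequences at that level. They included 9 of 14 of miR-322-5p and all 6 of miR-351-5p. These share the members' totals and are not independent of them.

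**Figure D4:**
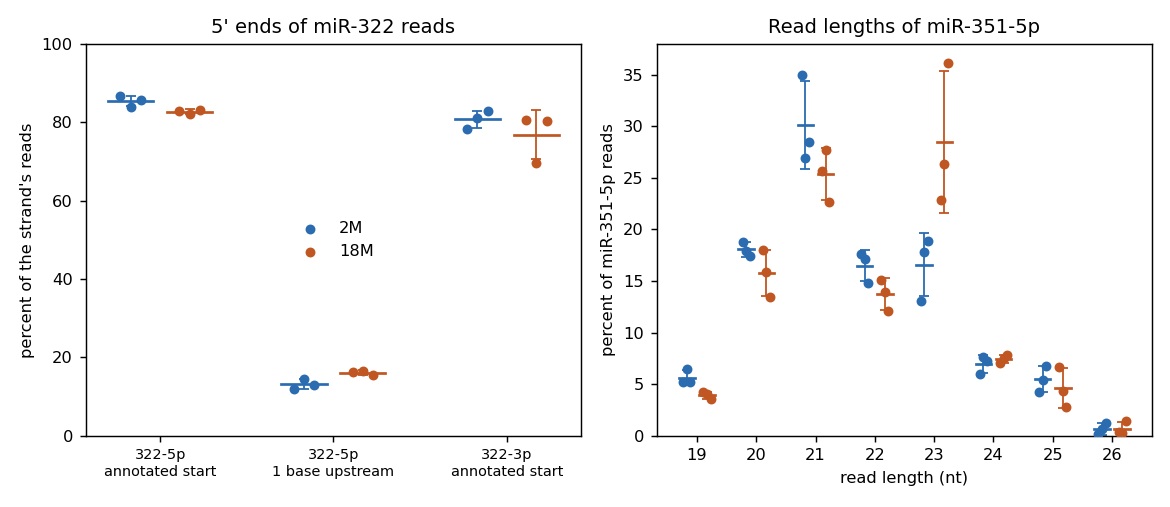
Left, percent of reads of each miR-322 strand that begin at the annotated base or, for miR-322-5p, 1 base upstream. Right, percent of miR-351-5p reads at each length in nt. Points are libraries (2M blue, 18M orange), lines are means and bars SD of 3 libraries; the shifted miR-322-5p reads are 11.9% to 14.5% at 2M and 15.5% to 16.6% at 18M, and 23 nt reads of miR-351-5p are 16.6% on average at 2M and 28.5% at 18M.

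The study rates each 6mer seed by the percent of cells that survive an siRNA carrying it, averaged over 3 mouse cell lines, and calls a seed with low survival toxic. The members span most of that scale. AGCAGC, the seed of miR-322-5p and miR-503-5p, has a viability of 37.8%. GUGACA of miR-542-3p has 65.7%, AACAUG of miR-322-3p 73.9%, UUUGCA of miR-450b-5p 76.9%, CCCUGA of miR-351-5p 79.4%, UUUGCG of miR-450a-5p 80.0% and UCGGGG of miR-542-5p 97.5%. The strands of a single hairpin therefore differ: the pair of Mir322 lies at 37.8% and 73.9%. The start shifted by 1 base gives miR-322-5p reads the seed CAGCAG, with a viability of 59.8%.

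Weighted by reads, the mean viability of miR-322-5p was 40.8% ± 0.273 at 2M and 41.4% ± 0.102 at 18M (SD, n = 3 each). This rests on the same shifted reads as the comparison of 5′ ends above. For the whole cluster it was 49.9% ± 0.876 at 2M and 51.4% ± 2.78 at 18M, a difference within the spread of the old libraries. Reads of the cluster made up 0.193% ± 0.00732 of all R-sRNAs with a seed viability under 40% at 2M and 0.0890% ± 0.0204 at 18M. The limit of 40% was chosen here and is not the study's, and it lies just above the 37.8% of AGCAGC. Cluster reads were thus a small part of the R-sRNAs below this limit at both ages.

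Most Ago-bound reads with the AGCAGC seed came from other miRNAs. miRNA reads with that seed summed to 18433 ± 311 RPM in the young libraries and 19551 ± 367 RPM in the old ones (SD, n = 3 each). miR-16-5p held 67.5% of them, miR-15a-5p 20.6%, miR-195a-5p 5.37%, miR-497a-5p 3.82% and miR-15b-5p 1.49%. miR-322-5p and miR-503-5p together held 1.33%, 1.51% and 1.39% in the 2M libraries and 0.725%, 0.430% and 0.635% in the 18M libraries. The old libraries were all below the young ones, and the total of the seed was not lower.

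The relatives with that seed did not follow the cluster as a group. miR-15b-5p, which lies on chromosome 3, was lower at 18M without overlap, with 344 ± 25.01 RPM in the young libraries and 236 ± 11.2 RPM in the old libraries (SD, n = 3 each) and a difference of -0.54 on the log2(RPM + 1) scale. miR-16-5p was higher without overlap, with 12426 ± 81.2 RPM against 13893 ± 668 RPM and a difference of 0.16. miR-15a-5p, miR-195a-5p and miR-497a-5p overlapped between the ages. miR-322-5p, at -1.14, thus had a lower fold change than any of these 5 relatives.

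For the seed of miR-351-5p the picture was even more uneven. miR-125b-5p held 76.4% of miRNA reads with CCCUGA and miR-125a-5p 23.6%, while miR-351-5p held 0.0849% ± 0.00827 at 2M and 0.0341% ± 0.0108 at 18M (SD, n = 3 each). The total of this seed was 44075 ± 4927 RPM at 2M and 35313 ± 6373 RPM at 18M.

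**Figure D5:**
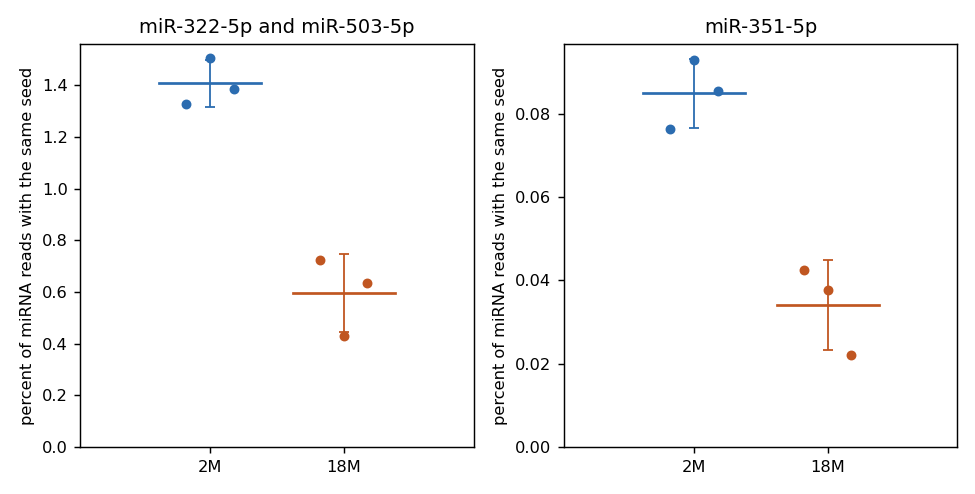
Percent of miRNA-labelled reads with a given 6mer seed that come from the cluster, per library at 2M (blue) and 18M (orange), for the seed of miR-322-5p and miR-503-5p (left) and of miR-351-5p (right). Lines are means and bars SD of 3 libraries. The young libraries lie at 1.33% to 1.51% on the left, above the old ones at 0.430% to 0.725%, and the shares on the right are below 0.1% throughout.

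Another group of X-linked miRNAs, those of the Clcn5 introns, was set beside the cluster. Of 12 listed strands 10 were found among the labels, with differences between -0.47 and 0.28 on the log2(RPM + 1) scale. miR-501-3p was lower at 18M without overlap, miR-501-5p was higher without overlap, and the other 8 overlapped. Among the 698 miRNAs with a mean of at least 1 RPM, 128 were lower and 43 higher without overlap. The 5 members that were lower without overlap lay below the Clcn5 range, as did miR-542-5p at -0.65. miR-450a-5p at 0.11 and miR-450b-5p at 0.099 lay within it. The members were chosen on this contrast, so their place beside the Clcn5 range is a description.

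Among the 461 miRNAs outside the cluster with a mean of at least 10 RPM, those with a profile over the 6 libraries most like the summed cluster were found by the root mean square difference of centred log2(RPM + 1) values. The closest was miR-467d-5p at 0.0840, followed by miR-467a-5p at 0.127, miR-466d-3p at 0.137, miR-298-5p at 0.160 and miR-296-3p at 0.160. The median of all miRNAs outside the cluster was 0.553. Of the members, miR-322-5p lay at 0.0792 and miR-322-3p at 0.166, while miR-503-5p lay at 0.350, miR-351-5p at 0.527 and miR-450a-5p at 0.778. Of these 5 members only miR-322-5p was closer to the sum than the 5 outsiders, and the 3 members under 10 RPM were not compared. Since miR-322-5p makes up most of the sum, its own likeness is built in. On the log2(RPM + 1) scale the 5 outsiders, in the order given, differed between ages by -1.07, -0.97, -0.85, -1.35 and -1.34. The summed cluster differed by -1.08, so a difference of this size was not particular to it. The age difference is part of the profile on which the outsiders were picked.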

How the data were processed

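Small RNAs bound to Ago1-4 were sequenced on an Illumina HiSEQ4000 after gel selection at 19 to 35 nt. According to the methods and the submitters' processing notes, the authors trimmed reads (Trim Galore), collapsed identical reads, removed rare ones, annotated them with SPOROS and deposited RPM values per read sequence. Versions are not given in the sources used here. The viability score of each seed, in percent of control cells, was deposited by the authors, as was a summed signal column (the total of the 6 RPM values), which was not used here. All RPM values (100%, within 2% of a step) were whole multiples of the value of 1 read, so whole reads were recovered. No per-sample column lay outside the 6 libraries.

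Groups came from the sample titles. The members and lists were chosen with earlier results of these data known. RPM were added up per miRNA label. Labels that joined several miRNAs, on 308 read sequences, were kept as labels of their own and can be among the miRNAs counted. The main fit was limma 3.58.1 in R 4.3.3 (lmFit, eBayes with trend) on log2(RPM + 1) for the 466 miRNAs whose mean reached 10 RPM, and p-values were adjusted by Benjamini-Hochberg with a limit of 0.05. This scale understates changes of low miRNAs. Composition was compared with exact two-sided permutation tests. The p-values measure the spread between 3 mice per age. Reads were placed on the hairpins of GENCODE M21 by an exact match of their first bases. A later mismatch, at the 3′ end or before it, was counted as departing from the hairpin. 12 read sequences of miR-322-5p, 0.443% of its reads, could not be placed.

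Named miRNAs were the 8 members, the 5 other strands, relatives sharing a seed, 12 strands of the Clcn5 introns and the 5 profiles most like the cluster. miR-195b, miR-1907, miR-6342, miR-6353 and miR-6419 were listed as relatives, but no read sequence carried any of these labels alone. miR-497b was listed too but does not carry the seed. Alternatives were other pseudocounts, filters, scaling, a replicate block, edgeR 4.0.16 with TMM and DESeq2 1.42.0 on recovered reads, other read sets and leaving out each library. Python 3.11.15 and pandas 2.3.3 were also used.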

Additional observations from a re-analysis of the deposited data

How the results depend on the processing

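The number of miRNAs called, 15 in the reported fit, was 2 at a mean of at least 100 RPM, 43 with DESeq2 and 0 to 15 when a library was left out. The number of members called, 2 of 5 tested, was 4 of 7 at a mean of at least 1 RPM, 0 of the 1 member left at a mean of at least 100 RPM, and 0 to 3 when a library was left out. With 0 called in all without 2M replicate 2 or 2M replicate 3, 68 and 73 miRNAs had an unadjusted p under 0.05 by limma; edgeR on all libraries called 14. With the replicate number as a block, 1 miRNA and 0 members were called, and 63 miRNAs had an unadjusted p under 0.05. The numbers do not pair the mice: deviations of same-numbered libraries correlated at -0.17, -0.22 and -0.10 over 466 miRNAs. With 1 library of each age per number, a block leaves the fold changes as they are by construction.

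The log2 fold change of the summed cluster ran from -1.11 to -0.99 over the other settings and from -1.19 to -0.94 with a library left out. The 4 members tested that were lower kept their sign under every setting that gave a value, and members under a filter's minimum got none. Median-of-ratios scaling raised the median of all miRNAs by 0.0936 on the log2 scale. The difference in mean length of miR-322-3p, 0.00348 nt, ran from -0.0227 (without 2M replicate 3) to 0.0241 with a library left out, and was -0.0118 without 18M replicate 2. That in the annotated start of miR-450a-5p ran from -0.249 to 0.0402 percentage points, the latter without 18M replicate 3. For low members such as miR-450b-5p the depth limits what can be seen.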
